A study of Mus musculus with 18 samples.

Results

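Muscle fibres fire action potentials through voltage-gated sodium channels, and 5 genes that build or tune these channels were followed in the mouse whisker pad after its motor nerve had been cut: Scn4a, Scn2b, Scn3b, Scn4b, and Fgf13. They were listed by name, with earlier results of these data known, as the muscle pore-forming subunit, 3 accessory beta subunits, and 1 cytoplasmic modulator. They are 5 of the 35071 genes in the data. Together they have 23 of the 113194 annotated transcripts. RNA was sequenced from 3 mm punches of skin and muscle, taken from the rostral whisker pad of 9 adult mice. The study used both sexes, and neither the sex nor the genotype of the sequenced mice is given in the sources used here. In each mouse the buccal and upper marginal branches of the right facial nerve were transected, and on the left the skin was opened and closed over an intact nerve. These sides are called denervated and sham. Separate mice were taken at 1, 3, and 7 days, 3 mice per day, which gives 6 groups of 3 samples and 18 samples in all. Every denervated sample is a right side and every sham sample is the left side of the same animal, so lesion and side cannot be told apart. The sham side shares the anesthesia, the skin wound, and the animal, and it is not an unoperated control.

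A sodium channel consists of a large alpha subunit that forms the pore and of beta subunits that cross the membrane once and adjust gating and the number of channels at the surface. Scn4a encodes Nav1.4, the alpha subunit of innervated adult skeletal muscle. Scn2b, Scn3b, and Scn4b encode the beta subunits β2, β3, and β4. β4 is known for permitting resurgent current in some neurons. Fgf13 belongs to the FGF homologous factors, which are not secreted like other fibroblast growth factors but stay in the cell and bind the C-terminal tail of the alpha subunit. Denervated muscle is known to become spontaneously active and to change the set of sodium channels in its membrane.

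In these samples Fgf13 and Scn4b moved in opposite directions while no change of Scn4a was called. Fgf13 was 7.33-fold higher on the denervated side at day 3 and 3.73-fold higher at day 7. Scn4b was at 0.243 of sham at day 3 and 0.39 at day 7. Scn3b, at a far lower level, was higher on the denervated side in 9/9 mice. Scn4a was at 1.16, 1.23, and 1.10 times sham at days 1, 3, and 7, and its change did not pass the test at any day. All levels are TPM (a transcript's abundance relative to all transcripts, corrected for its length) that the authors also normalized between samples, summed over the transcripts of a gene.

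On build GRCm38 the members lie on 3 chromosomes. Scn4a spans chr11:106318592-106353288 on the minus strand. The 3 beta subunit genes share chromosome 9 and its plus strand, with Scn3b at chr9:40269217-40291618, Scn2b at chr9:45117782-45130070, and Scn4b next to it at chr9:45138395-45154152. Fgf13 is on the minus strand at chrX:59062145-59568071. No exon of another annotated gene overlapped an exon of a member.

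Fgf13 has several first exons far apart, which give the protein different N-termini, and its transcripts did not contribute evenly. The transcript Fgf13-202 held 79.5% of the gene's summed TPM, Fgf13-205 held 10.2%, Fgf13-206 held 6.68%, and Fgf13-201 held 1.11%. RefSeq lists promoter windows of 300 bases on build GRCm38.p6 at the starts of 3 of these. They are printed so that the start used most can be seen beside starts used less in this tissue. Fgf13-206 and Fgf13-203 start upstream of Fgf13-205, at chrX:59568071, outside the printed windows. All windows are on the minus strand and read 5′ to 3′ in the direction of transcription. E-boxes (CANNTG, the letters bound by MyoD and other bHLH factors, a pattern that is the same on both strands) are in capitals.
Fgf13-202 start, chrX:59166039-59166338: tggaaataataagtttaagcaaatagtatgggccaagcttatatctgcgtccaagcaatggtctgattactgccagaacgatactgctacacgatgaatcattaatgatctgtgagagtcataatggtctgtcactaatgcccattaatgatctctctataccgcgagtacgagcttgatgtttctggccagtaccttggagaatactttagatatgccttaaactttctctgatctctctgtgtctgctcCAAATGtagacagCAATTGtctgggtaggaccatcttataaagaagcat
Fgf13-201 start, chrX:59134387-59134686: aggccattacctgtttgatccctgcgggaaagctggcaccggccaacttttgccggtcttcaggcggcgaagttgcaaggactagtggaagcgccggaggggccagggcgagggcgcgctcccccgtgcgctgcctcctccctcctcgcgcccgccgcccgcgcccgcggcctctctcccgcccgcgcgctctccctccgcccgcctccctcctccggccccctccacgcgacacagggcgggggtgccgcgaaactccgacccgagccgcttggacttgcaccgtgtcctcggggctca
Fgf13-205 start, chrX:59567299-59567598: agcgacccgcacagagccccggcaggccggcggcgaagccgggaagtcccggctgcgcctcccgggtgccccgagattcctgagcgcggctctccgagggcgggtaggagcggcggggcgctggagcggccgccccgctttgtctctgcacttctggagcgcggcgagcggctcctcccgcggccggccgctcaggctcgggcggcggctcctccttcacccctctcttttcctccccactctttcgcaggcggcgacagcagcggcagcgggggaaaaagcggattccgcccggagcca
The RefSeq start of the first window lies 76 bases from the start of Fgf13-202 in GENCODE, that of the second coincides with Fgf13-201, and that of the third is 124 bases from Fgf13-205. The window at the predominant start was AT-rich, with 40.3% GC, and the other printed windows had 73% and 74.3%, where the median over all windows was 52.7%. It held 2 E-boxes, CAAATG at 1 base and CAATTG at 14 bases after the RefSeq start, and the other printed windows held 0. A further RefSeq window of Fgf13, chrX:59585523-59585822, lies 17501 bases from the nearest GENCODE start and is not printed. It had 46.3% GC and also held 2 E-boxes, CAGCTG and CATTTG, so E-boxes are not particular to the window at the Fgf13-202 start. Over 32851 RefSeq windows of the same length, 72.3% held at least 1 E-box, so a match is ordinary. The windows of Scn4a and Scn4b held 0 E-boxes, and that of Scn2b held 3. Scn3b was not matched to a window.

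The biopsies differed in their RNA of muscle fibre markers, and this bears on genes of muscle. The summed TPM of 15 muscle fibre markers, among them Ckm, Acta1, and Ryr1, was 26460 to 33879 in the samples of day 3 and 39421 to 44918 in those of day 7. At day 1 it was 7955 to 38822 on the sham side and 11430 to 24775 on the denervated side. The lowest sample on each side came from the same animal, mouse 1 of day 1, which stands apart from the other 8 mice. None of the 15 markers was at 0 in any group. In bulk tissue, fewer cells of a type and less RNA per cell cannot be told apart. Keratins and other markers of epidermis and hair follicle summed to 7793 to 14140. By estimate a library held 10300000 to 32000000 reads, and the median library 14200000. Behind a sample's value stood an estimated 171 to 2576 reads for Scn4a, 298 to 3234 for Scn4b, 94 to 2418 for Fgf13, 26 to 97 for Scn2b, and 9 to 224 for Scn3b, so the last 2 carry the most counting error.

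**Figure D1:**
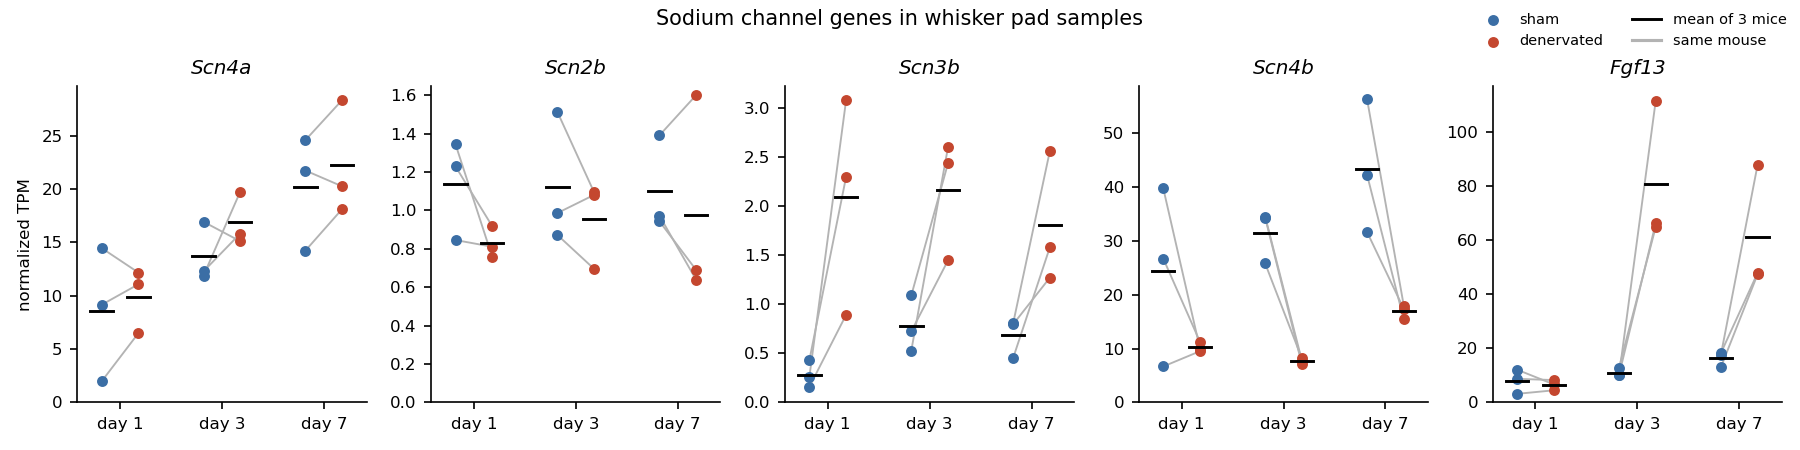
Normalized TPM of the 5 genes (vertical axes, each from 0) in sham and denervated samples at days 1, 3, and 7, with a gray line joining the sides of a mouse and a black bar at the mean of 3 mice. Fgf13 in the denervated samples is 64.9 to 112 at day 3 against 10.1 to 12.9 in sham, and Scn4b is 7.10 to 8.18 against 25.8 to 34.6.

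Sides were compared with limma on log2(TPM + 0.5), which understates the change of genes at low levels. Each SE of a log2 difference is limma's, from a fit without the mouse as a term. It also draws on the spread of the other genes or transcripts tested, so it is not an SE over paired mice. Genes entered a comparison if 47% or more of its samples had 1 TPM or more. Adjustment was by Benjamini and Hochberg over every gene in the comparison, and an adjusted p below 0.05 was called. At day 1, 3 members reached the minimum and 0 were called, where 0% of 14767 genes were called and 635 genes had an unadjusted p under 0.05. At day 3, all 5 were tested and 2 were called, Scn4b and Fgf13, against 1.45% of 14934 genes. At day 7, 4 were tested and these same 2 genes were called, against 1.52% of 15072 genes. Over all days, 4 were tested and 3 were called, Scn3b, Scn4b, and Fgf13, where 3.1% of 14750 genes were called. Scn3b reached the minimum mainly through its denervated samples, where it is high, so its call is a description and is not read against that share. The members were chosen with earlier results of these data known. The shares of all genes or transcripts, here and below, are therefore given for scale and test nothing about the list.

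The ranges of sham and denervated samples were also compared. At day 1 they were apart for 1 of 5 members, Scn3b, which was under the minimum, where 9.56% of the genes tested had ranges apart. At day 3 they were apart for 3 of 5 members, Scn3b, Scn4b, and Fgf13, where the share of all genes was 21.5%. At day 7 they were apart for the same 3 members, and the share of all genes was 17.6%. Scn3b reached the minimum in 1 sham sample at day 3 and 0 at day 7, against 3 denervated samples at each. Its ranges are therefore a description at every day and are not read against these shares.

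Scn4a, the alpha subunit, was not called at any day. At day 1 it was 1.97, 9.15, and 14.5 TPM in the sham samples of mice 1 to 3 and 6.48, 11.1, and 12.2 TPM in their denervated samples. At day 3 the sham samples were at 16.9, 12.3, and 11.9 TPM and the denervated samples at 15.1, 15.8, and 19.7 TPM. At day 7 they were at 24.6, 21.7, and 14.2 TPM and at 28.3, 20.2, and 18.1 TPM. The groups overlapped at each day, and the low sham value of day 1 is mouse 1, the sample with the lowest sum of muscle markers. The log2 difference between the sides was 0.51 ± 0.67 (limma's SE, n = 3 per side), 0.30 ± 0.17, and 0.15 ± 0.25 at days 1, 3, and 7. The adjusted p from limma was 0.999, 0.491, and 0.863. Over all days the difference was 0.32 ± 0.26 (limma's SE, n = 9 per side), with a 95% interval of -0.23 to 0.87 and limma's adjusted p of 0.663. The values rank by day rather than by side: the means were 8.53 ± 6.27 (SD, n = 3) and 9.90 ± 3.02 at day 1, 13.7 ± 2.80 and 16.9 ± 2.50 at day 3, and 20.2 ± 5.35 and 22.2 ± 5.39 at day 7, sham before denervated. Neighbors in this order overlapped. Of its 2 transcripts, the coding Scn4a-201 held 87.5%, and the remainder was Scn4a-202, a short noncoding transcript of 443 bases upstream of it.

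Scn4b, the β4 subunit, was lower on the denervated side and had the largest fall among the members. At day 1 the sham samples were at 6.68, 26.7, and 39.8 TPM and the denervated samples at 9.52, 11.3, and 10.02 TPM. Mouse 1 alone was higher on the denervated side, and it has the lowest muscle markers. At day 3 the sham samples were at 34.6, 34.3, and 25.8 TPM and the denervated samples at 7.78, 7.10, and 8.18 TPM. At day 7 they were at 56.3, 42.3, and 31.7 TPM and at 18.002, 15.4, and 17.4 TPM. At days 3 and 7 every denervated sample was below every sham sample, and the denervated samples were close to each other while sham varied. The log2 difference at days 1, 3, and 7 was -0.89 ± 0.61 (SE), -1.96 ± 0.14, and -1.30 ± 0.21, with limma's adjusted p of 0.999, 0.0029, and 0.041. Over all days Scn4b fell by 1.38 ± 0.26 on the log2 scale (limma, adjusted p = 0.0056), and without mouse 1 of day 1 by 1.62. The day 1 difference without that mouse was -1.57, at limma's adjusted p = 0.107. With 2 mice left the daily calls were lost without mouse 2 or 3 of day 3, at -1.84 (adjusted p = 0.112) and -2.14 (0.068), and without mouse 1 or 2 of day 7, at -1.14 (0.284) and -1.23 (0.435). The denervated means ran from 7.69 ± 0.543 TPM (SD, n = 3) at day 3 over 10.3 ± 0.907 at day 1 to 16.9 ± 1.35 at day 7, with ranges apart from each other. The sham means of 24.4 ± 16.7, 31.6 ± 4.97, and 43.4 ± 12.4 TPM at days 1, 3, and 7 overlapped with their neighbors. Scn4b has 1 annotated transcript, so its level does not depend on how reads were shared among isoforms.

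Fgf13, the channel modulator, had the largest log2 difference among the members tested at days 3 and 7. At day 1 the sham samples were at 3.17, 8.72, and 12.1 TPM and the denervated samples at 4.48, 8.27, and 6.67 TPM, and the sides overlapped. At day 3 the sham samples were at 12.9, 10.1, and 10.2 TPM and the denervated samples at 64.9, 112, and 66.3 TPM. At day 7 they were at 17.7, 18.3, and 13.1 TPM and at 87.9, 47.9, and 47.4 TPM. From day 3 on the lowest denervated sample was far above the highest sham sample, and in each of these denervated groups 1 mouse was well above the other 2. Its log2 difference at days 1, 3, and 7 was -0.15 ± 0.48 (SE), 2.78 ± 0.23, and 1.82 ± 0.27, with limma's adjusted p of 0.999, 0.0044, and 0.027. Over all days it was 1.48 ± 0.36 with an adjusted p of 0.034, which was 0.077 with the mouse as a block, so this call depends on the pairing. It was also lost when each mouse of day 3 or 7 was left out in turn, with a log2 difference of at least 1.24 (limma, adjusted p = 0.083 to 0.126). The daily calls were lost without mouse 2 or 3 of day 3, at 2.47 (adjusted p = 0.054) and 2.85 (0.118), and when each mouse of day 7 was left out in turn, at 1.59 to 2.05 (0.087 to 0.238). The ordered means were 6.47 ± 1.90 TPM (SD, n = 3) for denervated day 1, 8.0 ± 4.51, 11.05 ± 1.61, and 16.4 ± 2.86 for sham at days 1, 3, and 7, then 61.1 ± 23.2 and 80.9 ± 26.6 for denervated days 7 and 3. The last 2 groups overlapped, as did the denervated and sham samples of day 1, while sham at day 7 lay just above sham at day 3.

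Whether the response of Fgf13 differed between days was tested as an interaction. The day 3 difference exceeded that of day 1 by 2.93 ± 0.54 (SE) on the log2 scale, at limma's adjusted p = 0.058, and at 0.021 with the mouse as a block. Without mouse 1 of day 1 the excess was 3.22, at an adjusted p of 0.0038. Between days 7 and 1 the excess was 1.97 ± 0.54 (adjusted p = 0.321 and 0.132 with the block), and 2.26 without that mouse (0.034). Between days 7 and 3 it was -0.96 ± 0.54 (adjusted p = 0.782). For Scn4a, Scn3b, and Scn4b no such difference between days was called, with or without the block, and Scn2b was under the minimum there. In these fits 0.122% of 14750 genes were called between days 3 and 1, 0.163% between days 7 and 1, and 0% between days 7 and 3, where 1013 genes had an unadjusted p under 0.05 and 1 gene was called with the block.

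**Figure D2:**
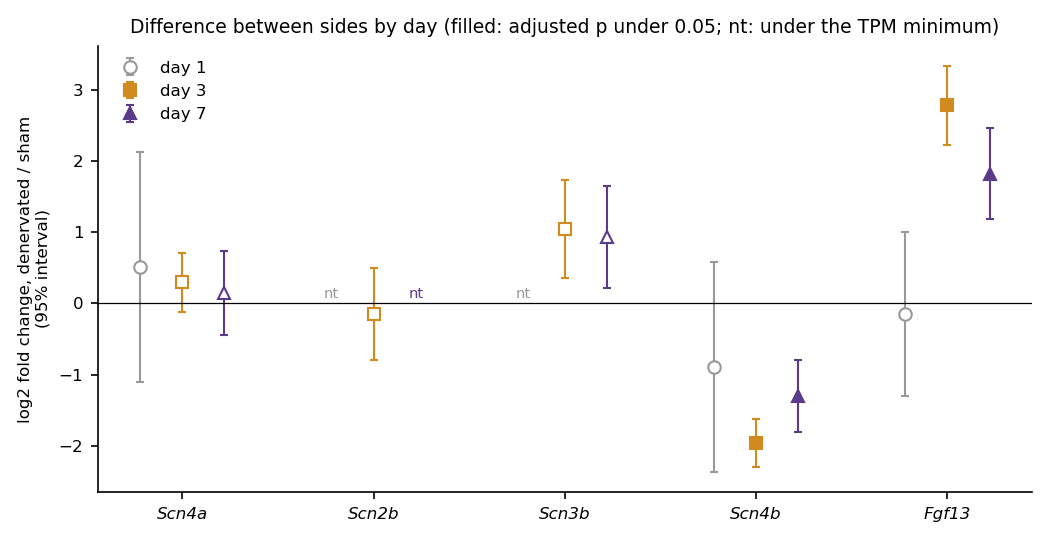
Log2 fold change of the denervated over the sham side (vertical axis) for each gene at days 1, 3, and 7, with limma's 95% interval as bars, filled symbols for an adjusted p under 0.05, and nt where the gene was under the TPM minimum. Fgf13 is at 2.78 and 1.82 and Scn4b at -1.96 and -1.30 at days 3 and 7, and the intervals of Scn4a include 0 at all 3 days.

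Scn3b, the β3 subunit, was scarce and was higher on the denervated side in 9/9 mice. At day 1 the sham samples were at 0.158, 0.261, and 0.431 TPM and the denervated samples at 0.891, 3.08, and 2.30 TPM. At day 3 they were at 1.09, 0.723, and 0.528 TPM and at 2.43, 1.45, and 2.60 TPM. At day 7 they were at 0.797, 0.454, and 0.809 TPM and at 1.27, 1.58, and 2.56 TPM. The sides did not overlap at any day, and the means of the denervated samples were 7.36, 2.77, and 2.63 times those of sham at days 1, 3, and 7. Scn3b reached the minimum in 8 of 9 denervated samples and in 1 of 9 sham samples, so it could be tested only through the side on which it is high. It was under the minimum at day 1, and the later log2 differences, 1.05 ± 0.29 (SE) for day 3 and 0.93 ± 0.30 for day 7, were not called, with limma's adjusted p at 0.169 and 0.274. Over all days the difference was 1.20 ± 0.20, with an adjusted p of 0.0021. Its size depends on the pseudocount, at 1.68 with 0.1 and 0.91 with 1. With 0.1 it was above the 1.51 of Fgf13 over the 9 mice, and with 0.5 or 1 it was below Fgf13.

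Scn2b, the β2 subunit, stayed close to 1 TPM in every group. At day 1 the sham samples were at 0.846, 1.23, and 1.34 TPM and the denervated samples at 0.811, 0.918, and 0.758 TPM. At day 3 they were at 0.986, 1.51, and 0.872 TPM and at 1.08, 1.09, and 0.695 TPM, and at day 7 at 0.944, 0.973, and 1.39 TPM and at 0.690, 0.639, and 1.60 TPM. The sides overlapped at each day. Its transcript Scn2b-201 held 80.2% of the sum. The gene reached the minimum only at day 3, where the log2 difference was -0.15 ± 0.27 (SE) with a 95% interval of -0.79 to 0.49 (limma, adjusted p = 0.866).

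Because the sides belong to the same animals, the difference between them was also taken within each mouse and tested over 9 mice with an exact two-sided sign-flip permutation test, whose smallest possible p is 0.0039. With 3 mice a day this test cannot go under 0.25, so it was not run by day. There were 9 such tests, of 5 genes and 4 ratios, and their p values are not adjusted. The mean log2 difference of Scn3b was 1.20 ± 0.54 (SD, n = 9), higher in 9/9 mice (exact p = 0.0039). That of Scn4b was -1.38 ± 0.82, lower in 8/9 mice (exact p = 0.0078), and that of Fgf13 was 1.48 ± 1.38, higher in 7/9 mice (exact p = 0.023). The mice that differ from the rest are all from day 1. Scn2b was lower in 7/9 mice by a small amount, with a mean of -0.20 ± 0.23 (exact p = 0.035), and leaving out any of 6 mice raised its p to between 0.055 and 0.070. Scn4a was higher in 6/9 mice at 0.32 ± 0.53 (exact p = 0.086) and, without mouse 3 of day 1, at 0.39 (exact p = 0.039).

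The balance between the accessory genes and the alpha subunit was then taken as a ratio of TPM within each sample, in which a factor common to both genes cancels. For differences on the log2 scale 0.5 TPM was first added to both genes, so there such a factor cancels only in part. Scn4b was above Scn4a in all 9 sham samples and below it in all 6 denervated samples of days 3 and 7. At day 1 the ratio of Scn4b to Scn4a was 3.02 ± 0.327 (SD, n = 3) in sham and 1.10 ± 0.331 in denervated samples. Day 3 had 2.34 ± 0.403 in sham and 0.46 ± 0.052 in denervated samples, and day 7 had 2.16 ± 0.183 and 0.785 ± 0.163. The sides were apart at each day, day 1 included, where Scn4b alone was not called. On the log2 scale the ratio fell by 1.70 ± 0.51 (SD), lower in 9/9 mice (exact sign-flip p = 0.0039). The means by day were -1.40, -2.26, and -1.44 at days 1, 3, and 7.

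The ratio of Fgf13 to Scn4a went from near 1 in sham to well above it at days 3 and 7. At day 1 it was 1.13 ± 0.415 (SD, n = 3) in sham and 0.662 ± 0.102 in denervated samples. Day 3 had 0.813 ± 0.047 in sham and 4.90 ± 1.92 in denervated samples, and day 7 had 0.828 ± 0.10 and 2.70 ± 0.375. At day 1 it was lower on the denervated side in 3/3 mice, by a mean of -0.66 ± 0.37 (SD) on the log2 scale, and at days 3 and 7 higher in 6/6 mice, by 2.48 ± 0.56 and 1.67 ± 0.35. Over all 9 mice the mean was 1.17 ± 1.46 (exact sign-flip p = 0.051), and with each mouse of day 1 left out in turn it was 1.35 to 1.44 (exact p = 0.031 to 0.047). The difference in direction between days was not tested for the ratio.

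Taken from the sums over transcripts, the ratios of Scn3b and Scn2b to Scn4a also differed between the sides. Alone, the mean log2 difference over the 9 mice was 1.20 for Scn3b, -0.20 for Scn2b, and 0.32 for Scn4a. With 0.5 TPM added to each gene, the log2 ratio of Scn3b to Scn4a was higher by 0.89 ± 0.76 (SD), in 8/9 mice (exact sign-flip p = 0.016). That of Scn2b to Scn4a was lower by 0.52 ± 0.50, in 8/9 mice (exact p = 0.012). Scn3b is low enough for the added 0.5 to matter. The mouse that was lower for Scn3b, mouse 1 of day 1, was at -0.42, but its plain ratio rose from 0.080 in sham to 0.138. Taken from the leading transcript of each gene in place of the sum, the log2 differences of Scn3b and Scn2b to Scn4a were 0.56 (exact p = 0.18) and -0.47 (exact p = 0.078), so neither passed. Among the 4 FGF homologous factor genes, Fgf13 supplied most of the summed TPM by the mean of each group. Its share was 62.2% ± 17.3 (SD, n = 3) in sham and 64.6% ± 6.87 in denervated samples at day 1, where the ranges overlapped. It was 72.01% ± 4.22 and 94.2% ± 1.21 for day 3, and 79.3% ± 4.10 and 92.3% ± 1.77 for day 7, with the ranges apart at both days.

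**Figure D3:**
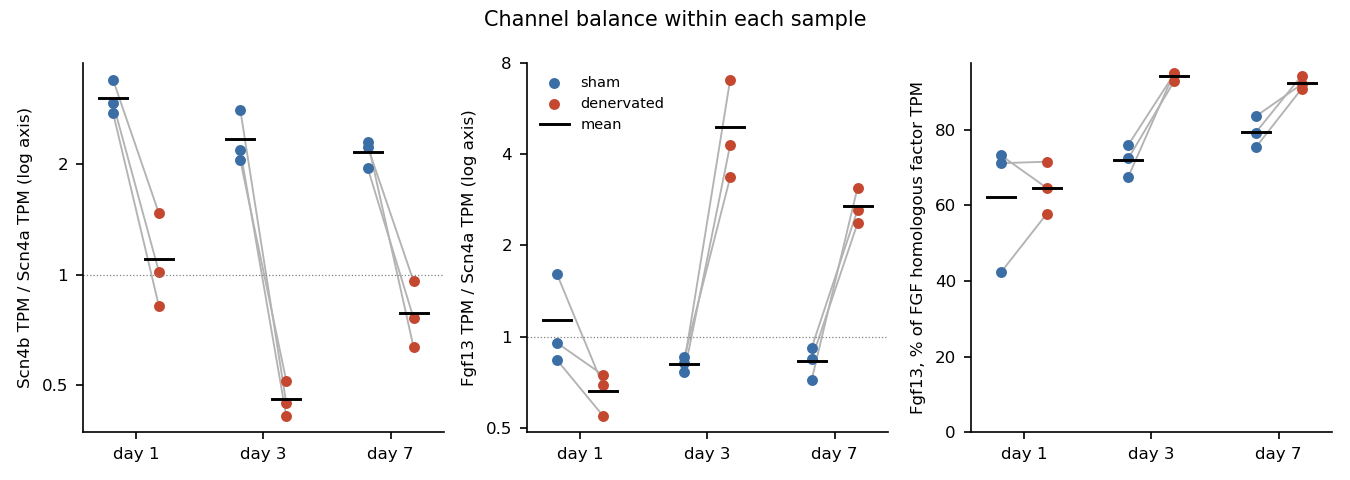
Ratio of Scn4b to Scn4a and of Fgf13 to Scn4a (log axes, dotted line at 1) and the share of Fgf13 in the summed TPM of the 4 FGF homologous factors (linear axis), per sample, with gray lines joining the sides of a mouse and black bars at the mean of 3 mice. Scn4b to Scn4a is lower on the denervated side in 9/9 mice, and Fgf13 to Scn4a is lower in 3/3 mice at day 1 and higher in 6/6 mice later.

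By transcript, 1 isoform of Fgf13 was called, Fgf13-202 at day 3. Fgf13-202 went from 11.2, 7.67, and 8.22 TPM in the sham samples of day 3 to 53.5, 88.1, and 52.6 TPM in the denervated samples, a log2 difference of 2.75 ± 0.25 (SE) (limma over transcripts, adjusted p = 0.020). At day 7 it went from 15.2, 13.6, and 11.7 TPM to 64.0, 40.9, and 35.2 TPM, a difference of 1.71 ± 0.25 that was not called (adjusted p = 0.066). The sides were apart at both days. Fgf13-205, which starts at the distal exon, went from 1.21, 1.72, and 0.842 TPM to 8.15, 7.93, and 5.29 TPM at day 3, a difference of 2.12 ± 0.27 (adjusted p = 0.058). Fgf13-206 went from 0.447 TPM in the sham sample of mouse 1 and 0 in the other 2 to 1.75, 12.1, and 6.12 TPM (adjusted p = 0.175). Both are short entries of 575 and 456 bases with 3 exons, so few reads set their level. Fgf13-203 and Fgf13-207 reached 2.22 and 1.84 TPM in denervated samples and were listed at 0 in 11 and 14 of the 18 samples. The share of Fgf13-202 in the gene was 81.4% ± 5.45 (SD, n = 3) in sham and 80.2% ± 1.94 in denervated samples at day 3. For day 7 these were 83.2% ± 7.82 and 77.5% ± 6.92, and the ranges overlapped at both days.

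The other call by transcript was Scn4b-201 at day 3, with a log2 difference of -1.96 ± 0.15 (SE; limma over transcripts, adjusted p = 0.014). The 2 member transcripts called at day 3 stand against 0.299% of 32794 transcripts, the 0 at day 7 against 0.385% of 33805, and the 0 at day 1 against 0% of 31981, where 1338 transcripts had an unadjusted p under 0.05. With the mouse as a block no transcript of any gene was called at day 3 or day 7, and 3945 and 3997 transcripts had an unadjusted p under 0.05. Fgf13-202 and Scn4b-201 were then at adjusted p of 0.121 and 0.102 at day 3. Scn3b was divided differently from sample to sample. Scn3b-203 held 61.1% of the gene, but at day 7 it was listed at 0 in the denervated samples of mice 1 and 3, where Scn3b-206 was at 0.993 and 0.516 TPM and Scn3b-202 was at 2.05 TPM in mouse 3. These 3 transcripts have 4024 to 4090 bases each, so the sum over the gene is steadier than its parts.

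**Figure D4:**
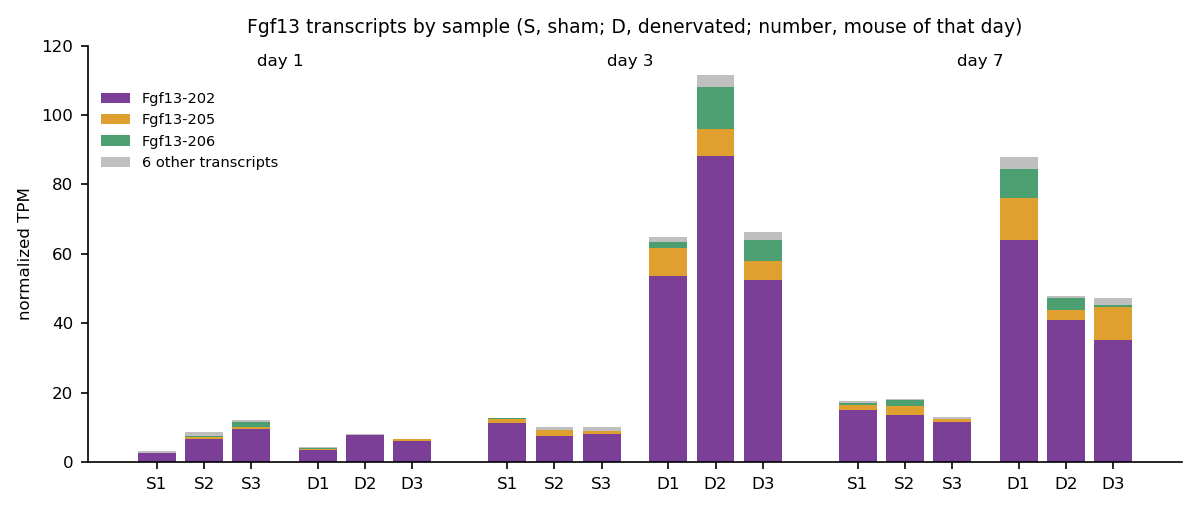
TPM of Fgf13 in each sample (vertical axis), stacked by transcript, for sham (S) and denervated (D) samples of mice 1 to 3 at days 1, 3, and 7. Fgf13-202 is the largest part of every bar, and Fgf13-205 and Fgf13-206 are mostly visible in the denervated samples of days 3 and 7.

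Other genes of the sodium channel complex were counted as fixed lists. Of 8 further alpha subunit genes, 2 reached the minimum and 0 were called at any day or over all days, with the median log2 difference over all days at 0.087 against 0.0072 for all genes. These were Scn7a, the atypical sodium-sensing Nax channel, with 6.59 ± 2.03 TPM (SD, n = 9) in sham and 6.74 ± 1.30 TPM in denervated samples, and Scn8a, the neuronal Nav1.6, with 1.74 ± 0.448 and 1.89 ± 0.304 TPM. Scn2a, the neuronal Nav1.2, was below the minimum at 0.312 ± 0.137 and 0.376 ± 0.196 TPM. The mean TPM of Scn4a was above that of each of these 8 on both sides.

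The other FGF homologous factors were counted in the same way. Of 3 genes, 1 reached the minimum and 0 were called. This was Fgf11, which was at 3.68 ± 0.483 TPM (SD, n = 9) in sham and 3.95 ± 0.862 TPM in denervated samples, with log2 differences for days 3 and 7 of 0.22 ± 0.21 (SE) and 0.20 ± 0.18, where limma's adjusted p was 0.708 and 0.711. Fgf14 and Fgf12 were under the minimum, with Fgf14 at 0.387 ± 0.125 and 0.303 ± 0.125 TPM and Fgf12 at 0.116 ± 0.0729 and 0.0929 ± 0.0756 TPM. Fgf11 showed no difference past the threshold where Fgf13 did, and the difference between genes was not tested.

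Of 12 anchoring and regulatory genes, all were tested and 0 were called, with the median log2 difference over all days at -0.044. Described here are Nedd4, a ubiquitin ligase that can remove sodium channels from the membrane, at 101 ± 15.1 TPM (SD, n = 9) in sham and 113 ± 28.2 TPM in denervated samples, Rangrf, a factor for trafficking of the cardiac channel, at 75.6 ± 16.4 and 73.0 ± 16.02 TPM, and Dlg1, a membrane scaffold protein, at 30.2 ± 2.76 and 29.3 ± 1.71 TPM. For Rangrf the mean over days covers opposite differences by day. At day 3 it was 64.4 ± 5.90 TPM (SD, n = 3) in sham and 92.4 ± 4.23 TPM in denervated samples (limma, adjusted p = 0.070), and at day 7 it was 82.8 ± 10.99 and 66.2 ± 1.45 TPM (adjusted p = 0.384), with the ranges apart at both days and neither difference called.

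Several values move with the results above and their part was not tested. Across the 9 sham samples, log2 TPM followed the log2 sum of the muscle markers with a Pearson correlation of 0.95 for Scn4a, 0.96 for Scn4b, and 0.96 for Fgf13, against 0.56 for Scn3b and 0.37 for Scn2b, as a description of samples that share their day and its depth. Over all 18 samples the values were 0.90, 0.58, and 0.60 for the first 3. At days 3 and 7 the muscle sums of the sides overlapped. With each sample scaled to these markers, Fgf13 and Scn4b were called at both days. The markers used for scaling differ between the sides themselves: 1 was called higher at day 3, and 2 were called higher and 1 lower at day 7. The part of muscle content in the differences was not tested. At day 7 the 8 neuron markers summed to 19.9 to 21.96 TPM in sham and 30.7 to 38.5 TPM in denervated samples, with 3 of 8 tested and 1 called higher, Uchl1. The 8 Schwann cell markers summed to 513 to 932 TPM in sham and 428 to 447 TPM in denervated samples at day 7, and the 6 macrophage markers to 162 to 460 and 320 to 671 TPM, with 0 called in either list. Of the Schwann cell markers 5 were lower on the denervated side and 3 higher, so their sum does not stand for the whole list. All 6 macrophage markers were higher. With the mouse as a block, 0 neuron markers and 1 macrophage marker were called at day 7. The lists for epidermis and hair follicle, fibroblasts, endothelium, and smooth muscle had 0 called. None of these markers was at 0 in a whole group.

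**Figure D5:**
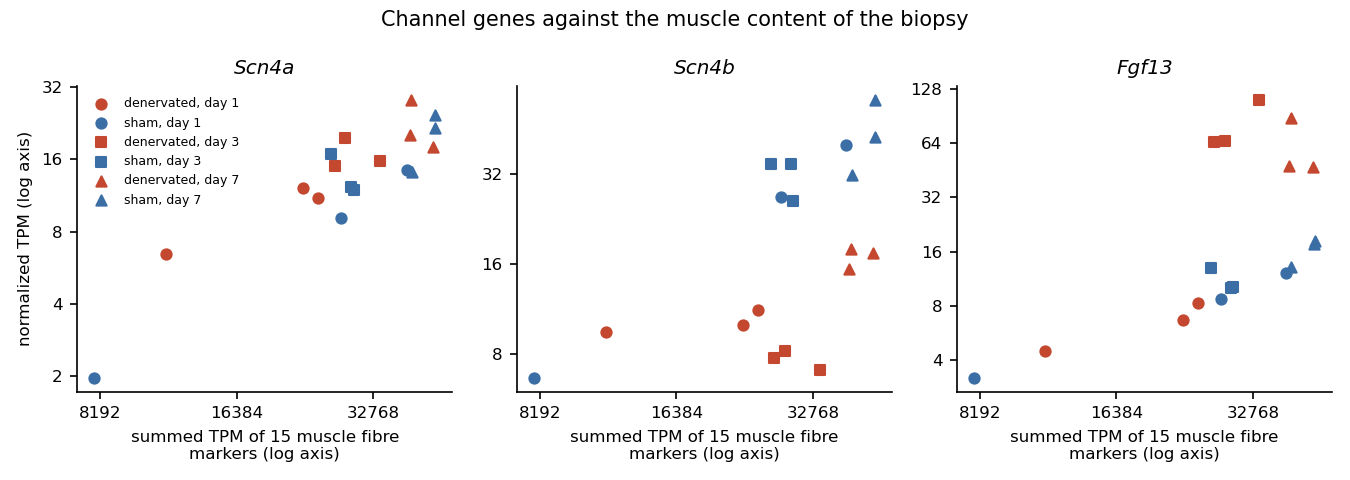
TPM of Scn4a, Scn4b, and Fgf13 (vertical log axes) against the summed TPM of 15 muscle fibre markers (horizontal log axis) in 18 samples, colored by side and with a symbol for each day. Scn4a follows the marker sum on both sides, and at days 3 and 7 the denervated samples of Scn4b lie below and those of Fgf13 above the sham samples of like marker sum.

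For each member, the 3 genes whose log2 TPM was most like it over the 18 samples were listed among 14750 genes, as a description. Scn4a was closest to Acta1, which encodes skeletal muscle actin (Pearson r = 0.96), Ank1 (0.92), and Rbfox1, a splicing factor of muscle and neurons (0.92). Scn4b was closest to Lrrc14b (0.97), Abcb4 (0.97), and Kcnj2, which encodes the inward rectifier Kir2.1 that sets the resting potential of muscle (0.96). Fgf13 was closest to Armcx3, a mitochondrial protein (0.98), Pacsin2, a membrane-bending protein (0.98), and Kpna1, an importin (0.97). Scn3b was closest to Sgms1, a sphingomyelin synthase (0.92), Pdpn (0.91), and Klhl30 (0.90). Scn2b, near 1 TPM, had no close neighbor, with Sag (0.79), Prkg2 (0.79), and Gm48054 (0.79) leading. The 18 samples share animals and days.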

How the data were processed

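RNA was extracted from 18 whisker pad punches, and libraries were made with a TruSeq kit, which keeps no strand, and sequenced on an Illumina NextSeq. The authors base-called reads (bcl2fastq 2.17.1.14), removed duplicates with ParDRe, trimmed with Fastp, pseudoaligned to Ensembl GRCm38 cDNA (kallisto 0.43.1), and used sleuth. The table of signal values deposited by the authors holds TPM after a normalization between samples, so that sums run from 833186 to 1143840 per sample. The tests had been set for plain TPM and were kept. Read counts are not among the files used here. Depth was estimated from steps in the values of long transcripts, where 70.3% to 84.4% of low values per sample lay within 0.1 of a whole read and 20% would if spread evenly.

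Of the transcripts, 98.38% matched GENCODE M21 by identifier, holding 99.46% of the value, and were summed per gene. limma 3.58.1 (R 4.3.3) with a mean-variance trend compared the sides at each day (6 samples) and over all days with a term for day, and interactions were fitted on 18 samples. Sides of a mouse share an animal, and their deviations from the group means correlated at 0.13 to 0.51 in the 9 mice. Each fit was therefore repeated with the mouse as block. Alternatives were pseudocounts of 0.1 and 1, TPM above 0 or at least 5, 3 scalings, no trend, a shared fit, the leading transcript, and leaving out each mouse. The tests were tried on simulated data. Other steps ran in Python 3.11.15 (scipy 1.17.1; numpy 2.4.6; pandas 2.3.3; figures in matplotlib 3.10.9).

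Every member was named, with each transcript that reached 1 TPM in a sample. A listed gene was named if it was called or was among the 3 highest of its list in sham, out of those reported, and the 3 genes most like each member were named. Fgf13-201 and Scn3b-206 fall outside this rule, as they were picked once their values had been seen. The members and lists were chosen with earlier results of these data known. In addition, 3 genes of these lists are not reported here. No 2 samples held identical values. Sample columns of day 7 were matched to the labels by their sequencing index.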

Additional observations from a re-analysis of the deposited data

Results flagged for a closer look

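The ratio of Fgf13 to Scn4a moved in opposite directions between days. In 3/3 mice of day 1 it was lower on the denervated side, at -1.06, -0.33, and -0.57 on the log2 scale. In 3/3 mice of day 3 it was higher, with a mean of 2.48, and in 3/3 mice of day 7 it was higher, with a mean of 1.67. The difference between days was not tested for the ratio. For Fgf13 itself the interaction is given above. No other member or ratio moved wholly one way at 1 day and wholly the other way at another.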

How the results depend on the processing

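The directions of Fgf13 and Scn4b at days 3 and 7 held under every alternative run, and their calls at day 3 held under all that keep the 3 mice. At day 7, 1 member was called in place of 2 with TPM above 0, an equal sum, no trend, or a shared fit, since Scn4b was then at adjusted p of 0.060, 0.059, 0.056, and 0.178. Without 1 mouse, 0 to 2 members were called at day 3 (0 without mouse 2 or 3), 0 to 1 at day 7 (0 without mouse 1 or 2), and 1 to 3 over all days (1 without day 3 mouse 1, where Scn3b is under the minimum, and 3 with all mice). In these fits 2 mice a group remain, and over all genes 7 were called at day 3 without mouse 2, 0 without mouse 3, and 1 and 5 at day 7 without mouse 1 or 2. The number of members whose effect differs between days was 1 in place of 0 with a pseudocount of 1, an equal sum, or the replicate block, and 0 to 1 without 1 mouse, in each case Fgf13. Member transcripts called at day 3 were 0 with the replicate block and 0 to 0 without 1 mouse, and at day 7 they were 1 with TPM of at least 5. With the replicate block, 2 members were called over all days, since Fgf13 was at adjusted p = 0.077, and no other call of a member gene between the sides changed.

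Over 9 mice, leaving out 1 mouse gave a mean log2 difference of 0.17 to 0.39 for Scn4a and -0.25 to -0.16 for Scn2b. For the ratios to Scn4a it gave 0.93 to 1.44 for Fgf13. With a pseudocount of 1 that ratio was 1.16 (exact p = 0.047) and by leading transcript 1.19 (0.039). By leading transcript, Scn2b to Scn4a was -0.47 and Scn3b to Scn4a was 0.56. Signs turned only for differences that were not called: Fgf13 at day 1 was 0.044 when scaled to muscle markers and -0.44 to 0.18 without 1 mouse, Scn4a was -0.58 to 0.29 between days 3 and 1, -0.73 to 0.14 between days 7 and 1, and -0.38 to 0.050 between days 7 and 3, Scn4b was -0.93 to 0.28 between days 7 and 1, and Scn3b was -0.30 to 0.16 between days 7 and 3. The cause was not tested, except that fewer samples are fitted without a mouse. Over all genes, where 0, 217, 229, and 457 were called at days 1, 3, and 7 and over all days, scaling to muscle markers called 19 at day 1 and 156 over all days, a shared fit called 30 at day 1 and 328 at day 3, no trend called 6 at day 1, an equal sum 2, and TPM above 0 called 1. Without 1 mouse the counts were 0 to 4, 0 to 133, 1 to 126, and 227 to 691. Between days 3 and 1, 18 genes became 0 with muscle markers, 68 with the block, and 148 without day 1 mouse 1, and between days 7 and 1, 24 became 1 with muscle markers, 15 with an equal sum, and 82 without that mouse. Counting error limits Scn2b and Scn3b most.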
